A study of Homo sapiens with 4 samples.

Results

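The transcription factors that drive epithelial-mesenchymal transition (EMT) were read probe set by probe set in a human breast carcinoma line in which 1 of them, ZEB2, had been lowered. The genes were ZEB2, ZEB1, SNAI1, SNAI2, TWIST1, TCF3, TCF4, PRRX1, FOXC2 and KLF8, 10 genes of the 19775 that the platform annotation names on the arrays. They were taken as every probe set annotated with exactly 1 gene symbol when that symbol was on the list, which gave 41 of 54675 probe sets. The study used MDA-MB-231, a triple-negative line with a mesenchymal look, on Affymetrix U133 Plus 2 arrays, with 4 groups of 1 array each. In shZEB2 cells a ZEB2 short hairpin RNA had been stably transduced, and their control was cells stably transduced with the control vector pLVTH. In siZEB2pool cells a pool of small interfering RNAs against ZEB2 had been transfected at 20 nM, and their control received siRNA against luciferase (siLUC), which human cells do not encode. The siRNA cultures were washed after 24 hours and harvested 48 hours later, and 100 ng of their RNA was labelled, against 2 microg for the stable lines. Whether a stable line was 1 clone or a mixed population is not given in the sources used here. Below, the stable pair is shZEB2 and its vector control, and the transient pair is siZEB2pool and siLUC. Because each group has a single array, differences within a pair were not tested, and the small number of arrays limits their precision.

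EMT transcription factors loosen epithelial cells from their neighbours by repressing junction genes such as CDH1, which encodes E-cadherin. ZEB2 and ZEB1 are zinc-finger and homeobox repressors, and SNAI1 (Snail) and SNAI2 (Slug) are zinc-finger repressors, all of which bind E-box elements in DNA. TWIST1, TCF3 (the E2A gene) and TCF4 (the E2-2 gene, which is not the Wnt factor gene TCF7L2) encode basic helix-loop-helix (bHLH) proteins that bind E-boxes as dimers. PRRX1 is a homeodomain factor, FOXC2 a forkhead factor and KLF8 a Kruppel-like zinc-finger factor. ZEB factors and the microRNA-200 family repress each other.

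Levels are log2 values made by robust multi-array averaging (RMA), and 1 unit is 2-fold. For counts and tests a probe set had to reach 4.77 on at least 1 array, which is the 40th percentile of the deposited values. Of the 41 probe sets 23 passed, from 7 genes, and 18 did not. TWIST1, FOXC2 and KLF8 had no probe set past this level. Just inside it lay the TCF4 probe set 213891_s_at, with a highest level of 4.78, and just outside it the FOXC2 probe set 239058_at, with a highest level of 4.71. Levels of different probe sets cannot be compared with each other, since each binds its target with its own strength.

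The median level of the arrays ranged from 5.34 to 5.37. The mesenchymal markers VIM (13.64 to 14.12), CD44 (12.14 to 12.57), CAV1 and AXL were bright on every array, while SPARC lay between 4.45 and 4.88. PGR, FOXA1 and ESRP1 stayed under the filter level throughout, and ESR1 read 6.08 to 6.54. Of the leukocyte markers PTPRC stayed under it, while CD3E (5.17 to 5.52) and CD14 (4.98 to 7.30) passed. Of the endothelial markers CDH5 stayed under it, while PECAM1 (5.72 to 6.98) and VWF (4.86 to 5.53) passed, and the part of such cells in the results was not tested. GATA3 read 8.18 to 9.48 and ERBB2 7.83 to 7.97, so not every marker listed as low in this line was dim. The luminal breast keratins KRT18 (12.18 to 12.43), KRT8 (10.74 to 11.18) and KRT19 (10.77 to 11.52) were bright on every array. Of the basal breast keratins KRT5 read 4.95 to 5.31 and KRT14 stayed under the filter level. In all, 22 of 25 marker genes had a probe set with 1 symbol, and 16 passed the filter.

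ZEB2 was lower in both knockdowns in the pair of its probe sets that were readable in the controls. Probe set 203603_s_at read 3.52 in shZEB2 cells, against 6.12 in their vector control. It read 3.51 in siZEB2pool cells, against 6.56 in the siLUC control. Both knockdown arrays therefore lay below both control arrays, by 6.05-fold in the stable pair and 8.28-fold in the transient pair, and the 2 knockdown levels were almost equal. Probe set 228333_at read 3.47 in shZEB2 cells against 4.80 in the vector control, a difference of -1.33. It read 3.71 in siZEB2pool cells against 5.21 in the siLUC control, a difference of -1.50. On both knockdown arrays both probe sets were too dim to pass the filter level, a range in which RMA shrinks differences, so the remaining ZEB2 transcript cannot be read from them.

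The remaining 3 ZEB2 probe sets, 233033_at, 233031_at and 235593_at, lay between 2.76 and 3.73 on all arrays. Their differences were 0.13, 0.09 and 0.03 in the stable pair, and 0.42, -0.08 and 0.02 in the transient pair. They were dim in the controls as well as in the knockdowns, so they could not show a loss. The mean over all 5 ZEB2 probe sets was -0.73 in the stable pair and -0.84 in the transient pair.

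**Figure D1:**
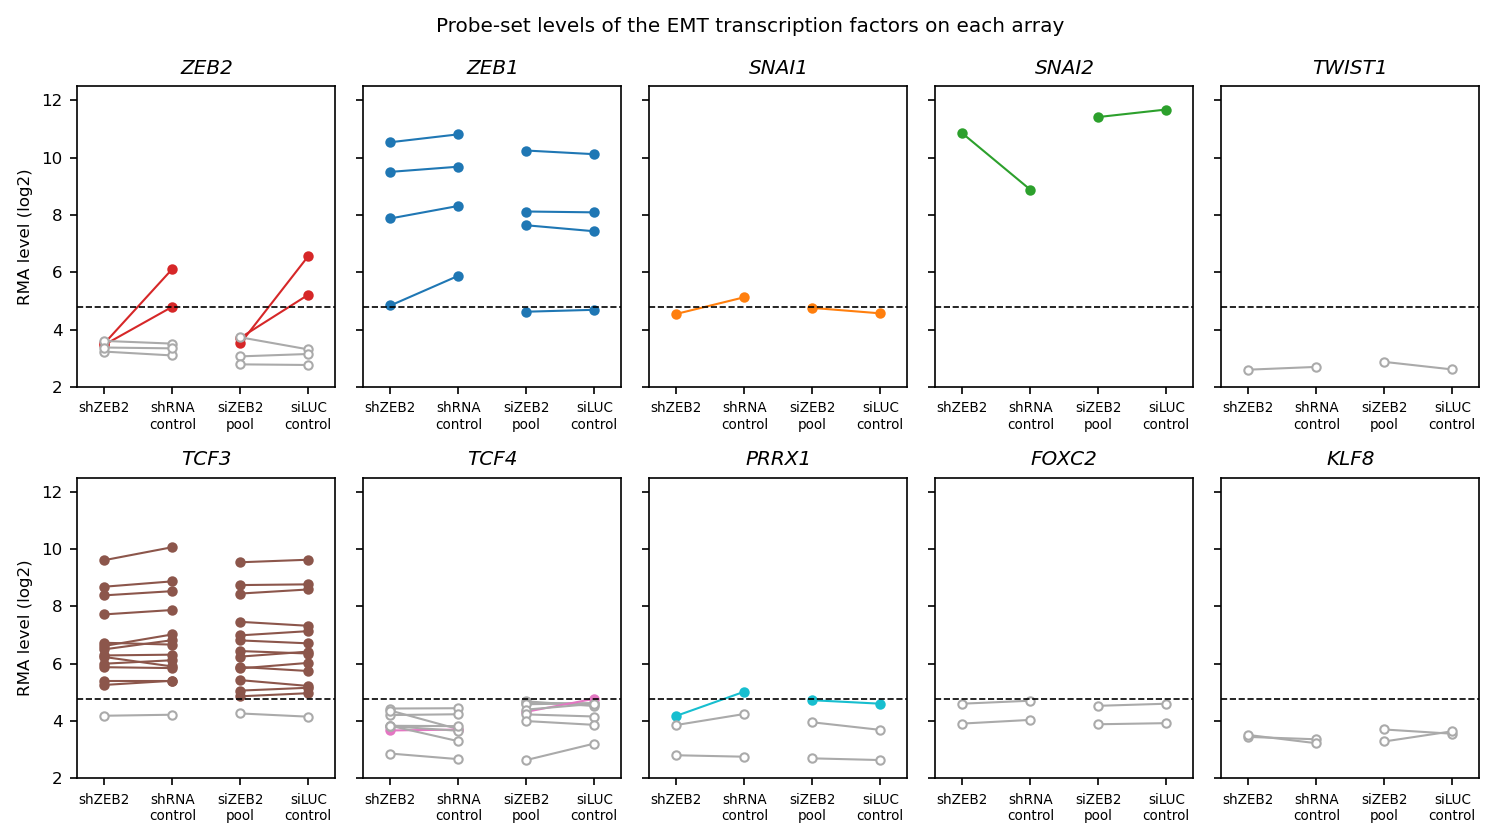
RMA level (log2) of each of the 41 probe sets on each array, 1 panel per gene, with each knockdown left of its own control and a line joining the 2 arrays of a pair. Filled coloured points are probe sets past the filter, open grey points are those below it on every array, and the dashed line marks the filter level of 4.77. The lines of both readable ZEB2 probe sets lie lower on the knockdown arrays, the 14 TCF3 lines differ by at most 0.45 within a pair, and SNAI2 is lowest, at 8.88, in the vector control.

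ZEB1, the paralog of ZEB2, was bright on every array and differed little in the transient pair. Its brightest probe set, 212764_at, read 10.54 in shZEB2 cells against 10.81 in the vector control, and 10.25 in siZEB2pool cells against 10.12 in the siLUC control. Probe set 212758_s_at read 9.50 in shZEB2 cells against 9.68 in the vector control, and 8.12 in siZEB2pool cells against 8.09 in the siLUC control. Probe set 210875_s_at read 7.88 in shZEB2 cells against 8.31 in the vector control, and 7.64 in siZEB2pool cells against 7.43 in the siLUC control. All 4 ZEB1 probe sets were lower in the stable knockdown, with differences between -1.04 and -0.18, and those values kept their sign under each of 3 other scalings. In the transient pair 3 were higher and 1 lower, all within -0.07 and 0.21. The fourth, 239952_at, was the only ZEB1 probe set at 2-fold in a pair. It read 4.84 in shZEB2 cells, 5.88 in the vector control, 4.62 in siZEB2pool cells and 4.69 in the siLUC control, so the vector control stood above the other arrays.

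The Snail genes went in opposite directions in the stable pair. SNAI2 read 10.85 in shZEB2 cells against 8.88 in the vector control, 3.91-fold higher. It read 11.42 in siZEB2pool cells against 11.68 in the siLUC control, a difference of -0.26. The vector control was thus the lowest of the 4 arrays, and shZEB2 cells lay closer to the siRNA arrays than to their own control. SNAI1 read 4.55 in shZEB2 cells against 5.13 in the vector control, and 4.75 in siZEB2pool cells against 4.56 in the siLUC control. The vector control was the only array on which SNAI1 reached the filter level. Each Snail gene rests on 1 probe set, 213139_at for SNAI2 and 219480_at for SNAI1.

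Among the bHLH genes, TCF3 was the best covered, with 14 probe sets of which 13 passed the filter. Its brightest, 209153_s_at, read 9.62 in shZEB2 cells against 10.07 in the vector control, and 9.54 in siZEB2pool cells against 9.63 in the siLUC control. Over all 14 the differences ran from -0.45 to 0.33 in the stable pair, with a median of -0.13, and from -0.19 to 0.20 in the transient pair, with a median of -0.06. None was 1.5-fold apart in either pair, against 15.2% of all probe sets kept in the stable pair and 3.01% in the transient pair. In the stable pair 10 were lower and 3 higher, and 228052_x_at had the same value, 5.39, on both arrays. Of the 14 TCF3 probe sets, 6 have names ending in _x_at, which marks probes that can bind other transcripts. One of them, 209151_x_at, had the highest difference of the gene in the stable pair, 0.33, at 6.23 in shZEB2 cells against 5.90 in the vector control.

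TCF4 was dim, with 1 of 8 probe sets past the filter and every level between 2.64 and 4.78. That probe set, 213891_s_at, read 3.67 in shZEB2 cells against 3.70 in the vector control, and 4.32 in siZEB2pool cells against 4.78 in the siLUC control. The differences of the 8 ran from -0.03 to 0.65 in the stable pair and from -0.57 to 0.16 in the transient pair. The highest, 0.65 for 222146_s_at, was measured wholly below the filter level. TWIST1, with the single probe set 213943_at, read 2.60 in shZEB2 cells against 2.70 in the vector control, and 2.87 in siZEB2pool cells against 2.61 in the siLUC control. These levels are near the bottom of the scale, where a difference cannot be read as a change of the transcript.

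PRRX1 passed the filter through 1 of 3 probe sets and 1 array. Probe set 226695_at read 4.18 in shZEB2 cells against 5.03 in the vector control, a difference of -0.84, and 4.73 in siZEB2pool cells against 4.60 in the siLUC control, a difference of 0.12. Probe set 205991_s_at, dim on every array, differed by -0.38 and 0.26 in the same order of pairs, and 238852_at by 0.05 and 0.06. FOXC2, with 2 probe sets, lay between 3.89 and 4.71, and its differences between -0.13 and -0.04 over both pairs. KLF8, also with 2, lay between 3.22 and 3.70. Its probe set 230986_at differed by 0.29 in the stable pair and by -0.36 in the transient pair. For FOXC2 and KLF8 no difference was measured above the filter level.

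Counted at 2-fold, 4 of the 23 probe sets past the filter differed in the stable pair, against 4.35% of all 35626 probe sets kept. They were both ZEB2 probe sets and ZEB1 239952_at, all lower, and SNAI2, which was higher. The nearest below 2-fold was PRRX1 226695_at, which passed the filter through the vector control alone. In the transient pair 2 of the 23 were at 2-fold, against 0.239% of all kept, and both belonged to the knockdown target ZEB2. Next to them came the TCF4 probe set 213891_s_at, at -0.45, which passed the filter through the siLUC control alone. The ZEB2 probe sets passed through the control arrays alone. For each of these probe sets a lower value in siZEB2pool cells was thus implied by its passing. The same 2 ZEB2 probe sets were 2-fold lower in both pairs, against 0.0309% of all kept, and no EMT factor was 2-fold higher in both, against 0.00281%. Leaving out ZEB2, the median size of the difference was 0.187 in the stable pair and 0.138 in the transient pair, against 0.232 and 0.150 over all probe sets kept. TCF3 holds 13 of these probe sets, so both medians describe mainly that gene. The standard deviation without ZEB2 was 0.574 in the stable pair and 0.176 in the transient pair, against 0.486 and 0.252 over all kept.

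**Figure D2:**
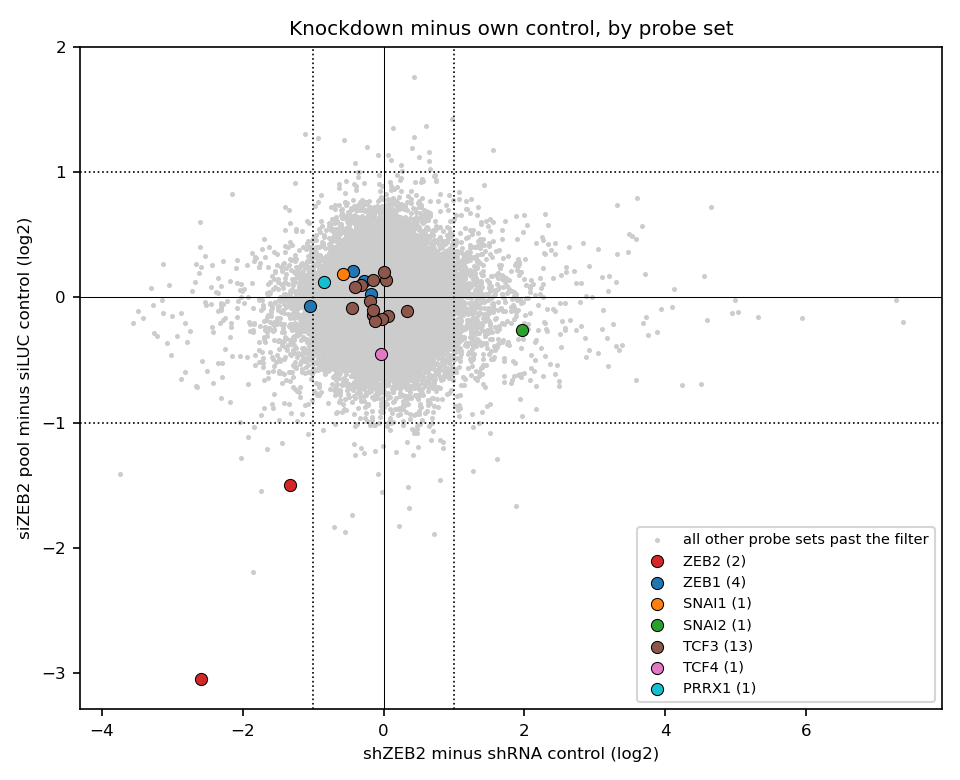
Difference (log2) of shZEB2 minus vector control on the horizontal axis and of siZEB2pool minus siLUC control on the vertical axis, 1 point per probe set past the filter, with EMT factors coloured and their number of probe sets in the legend. Dotted lines mark 2-fold. Both ZEB2 probe sets lie in the lower left corner beyond 2-fold in both pairs, while the other factors lie within 2-fold of 0 on the vertical axis.

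Directions were then set beside those of all probe sets. In the stable pair 18 of the 23 were lower, against 51.5% of all kept. Of these 18, 9 were TCF3 probe sets and 4 were ZEB1 probe sets, which share a gene and are not separate observations. Both ZEB2 probe sets, SNAI1 219480_at and PRRX1 226695_at were also among the 18. They reached the filter level only on control arrays, so their passing already implied a lower value in shZEB2 cells. In the transient pair 13 of 23 were lower, against 53%. Among these 13, both ZEB2 probe sets and TCF4 213891_s_at likewise passed through control arrays alone. Opposite signs in the pairs were seen for 11 of 23, against 50.6%, which is near the background. Of the 82 differences of the 41 probe sets, 7 changed sign with another scaling, the largest of which was 0.0313 in size.

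A common effect of ZEB2 knockdown was tested with limma on all 35626 probe sets kept, in a model with a knockdown term and a method block. The fit takes its error from the disagreement between the knockdown differences of the 2 methods, with 1 residual degree of freedom, moderated across probe sets. ZEB2 203603_s_at had a mean difference of -2.82 ± 0.19 (SE) and the lowest unadjusted p of the table, 0.000128. ZEB2 228333_at had -1.42 ± 0.18 and ranked 4 with an unadjusted p of 0.00144 in limma. Their adjusted p was 0.975 each in limma with Benjamini-Hochberg adjustment, so neither passed, although ZEB2 was lower on 2 of 2 knockdown arrays. No probe set passed, 0 of 35626 and 0 of the 23 (0%), and 2 of the 23 had an unadjusted p under 0.05, both ZEB2, against 2.91% of all kept. SNAI2 had a mean difference of 0.85 ± 0.58 and an unadjusted p of 0.215, and the brightest ZEB1 probe set -0.07 ± 0.19 and 0.717, each from limma. Since not even the knockdown target ZEB2 passed, the test could not show whether any other factor had an effect shared by both methods.

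The 2 controls, which both keep ZEB2, differed from each other in several of these genes. SNAI2 was higher by 2.80 in the siLUC control than in the vector control, 6.97-fold. ZEB1 was lower in the siLUC control in all 4 probe sets, with differences between -1.59 and -0.69. TCF4 was higher in the siLUC control in 8 of 8 probe sets, from 0.04 to 1.31, all but 1 of which were below the filter level on both arrays. Each of these counts covers probe sets of 1 gene, which are not separate observations. Of all genes, by brightest probe set, 54% were higher in the siLUC control. ZEB2 itself was higher in the siLUC control by 0.45 and 0.42 in its readable probe sets. At 2-fold 4 of 23 probe sets differed, against 18.9% of all kept, namely SNAI2 and TCF4 213891_s_at higher and ZEB1 212758_s_at and 239952_at lower. TCF4 213891_s_at passed the filter through the siLUC control alone, and ZEB1 239952_at through the shRNA arrays alone. For these probe sets the direction between the controls was thus implied by their passing. For 14 of 23 probe sets the gap between the controls was at least as large as the difference in the stable pair, against 69.6% of all kept, and for 16 of 23 at least as large as that in the transient pair, against 78.1%. Both ZEB2 probe sets were among the exceptions in each pair. Delivery, culture history, RNA input and array differ together between the controls and cannot be told apart.

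**Figure D3:**
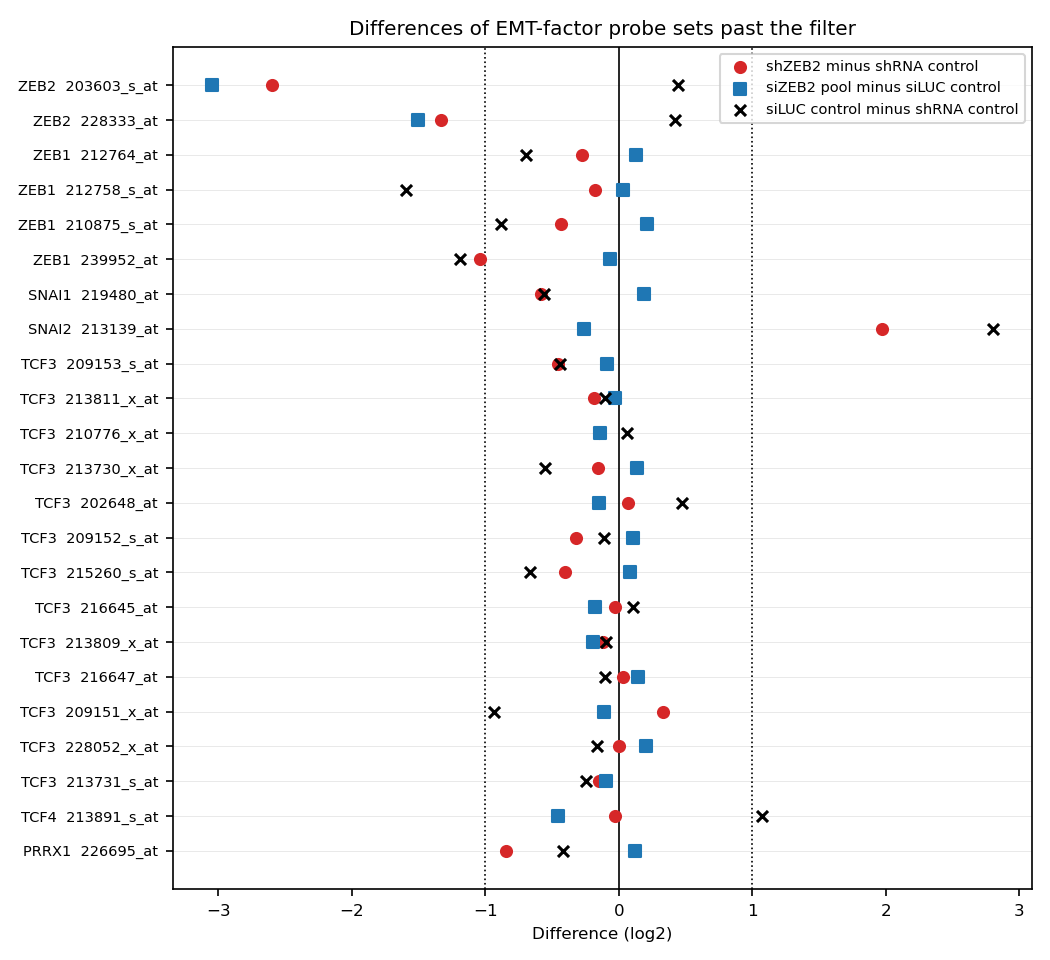
Difference (log2) for each of the 23 probe sets past the filter, 1 row each, as red circles for shZEB2 minus vector control, blue squares for siZEB2pool minus siLUC control and black crosses for siLUC control minus vector control. Dotted lines mark 2-fold. For both ZEB2 probe sets circle and square lie beyond -1 while the cross lies above 0, and the SNAI2 circle at 1.97 lies beside a cross at 2.80.

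The antisense gene ZEB1-AS1, which starts next to ZEB1, gave 7.09 in shZEB2 cells against 6.96 in the vector control, and 6.05 in siZEB2pool cells against 6.02 in the siLUC control. Between the controls it differed by -0.94, lower in the siLUC control as ZEB1 was. SNAI3-AS1 differed by -0.06 and -0.15 in the stable and transient pairs. TCF4-AS1 was under the filter level on every array. ZEB2-AS1 was not analysed here.

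The genes whose 4 values ran most like ZEB2 203603_s_at were sought among the other 15081 genes past the filter, each by its brightest probe set, after centring each gene on its own mean. The measure was the root-mean-square distance over the 4 arrays, on a scale where the ZEB2 pattern itself has a size of 1.42. Nearest were the secretory granule gene SCG5 at 0.661, and CCND2, a D-type cyclin gene, at 0.796. TMC5 at 0.805, the orphan receptor gene GPR158 at 0.827 and the pseudogene ADCY10P1 at 0.832 followed. SCG5 read 8.12 in shZEB2 cells against 9.97 in the vector control, and 7.12 in siZEB2pool cells against 9.31 in the siLUC control. GPR158 read 3.76 in shZEB2 cells against 6.41 in the vector control, and 5.08 in siZEB2pool cells against 5.80 in the siLUC control. Of the other EMT factors, the 5 whose brightest probe set passed the filter had distances from 1.28 for PRRX1 to 2.03 for SNAI2. These distances describe 4 arrays and carry no test.

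Genes that work with the EMT factors were then described by their brightest probe sets, beside all 15082 genes past the filter, whose median difference was -0.0242 in the stable pair and -0.0183 in the transient pair. Corepressors that ZEB and Snail proteins recruit, among them CTBP1, CTBP2 and the histone demethylase gene KDM1A, had medians of 0.076 and 0.00901 over 23 genes. The siRNA median changed sign with scaling. CTBP1, the best known ZEB corepressor, differed by -0.12 and 0.02. Only GATAD2A, a subunit of the NuRD repressor complex, was 2-fold lower in the stable pair, at -1.15, against 2.08% of all genes, and its 6 probe sets ran from -1.15 to 0.08. The histone methyltransferase gene EHMT2 differed by 0.59 and -0.54.

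Genes of TGF-beta signalling, an inducer of EMT factors, had a median of -0.222 in the stable pair, with 11 of 15 lower against 53.2% of all genes, and of 0.0643 in the transient pair, with 6 of 15 lower against 53.7%. LTBP1, which holds latent TGF-beta in the matrix, differed by -1.48 and -0.59, and its other probe set by -1.41 and -0.12. Other EMT-linked transcription factors had medians of 0.00179 and -0.0524 over 15 genes. LEF1, a Wnt pathway factor, was lowest in the stable pair. It read 7.22 in shZEB2 cells against 9.05 in the vector control, and 5.23 in siZEB2pool cells against 5.76 in the siLUC control. Its 3 probe sets ran from -1.82 to 0.48 in the stable pair. SOX4, an HMG-box factor, differed by 0.89 and -0.77. Its 6 probe sets ran from -0.04 to 0.89 in the stable pair and from -0.94 to 0.21 in the transient pair.

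The ID proteins, which hold E proteins such as TCF3 and TCF4 in inactive dimers, held the largest differences among 6 dimer partners and inhibitors of bHLH factors, whose medians were -0.551 and 0.0611. ID1 read 10.08 in shZEB2 cells against 12.52 in the vector control, a difference of -2.44, and 7.71 in siZEB2pool cells against 7.63 in the siLUC control. ID3 read 6.21 in shZEB2 cells against 8.55 in the vector control, and 5.37 in siZEB2pool cells against 5.21 in the siLUC control. For both, the vector control was the highest array, and the transient pair differed by 0.08 and 0.16. ID2 differed by -0.89 in the stable pair and by 0.82 in the transient pair, the largest transient difference of this list. Kinases, ubiquitin ligases and other regulators of Snail and Twist protein stability had medians of -0.046 and -0.0768 over 14 genes. By brightest probe set 0 of 14 were at 1.5-fold in either pair, against 14.7% and 2.2% of all genes. In the transient pair 0 of 14 is near that background. Other probe sets went past 1.5-fold, with PPM1A reaching 0.93 and GSK3B 0.73 in the stable pair. In the transient pair PPM1A and FBXO45 each had another probe set lower by more than 1.5-fold, at -0.73 for FBXO45. When each gene was taken by the median of all its probe sets the list medians were 0.0683 and -0.032. The named examples of these regulators were BTRC, at 0.43 and -0.08, and CSNK1E, at 0.57 and -0.10.

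**Figure D4:**
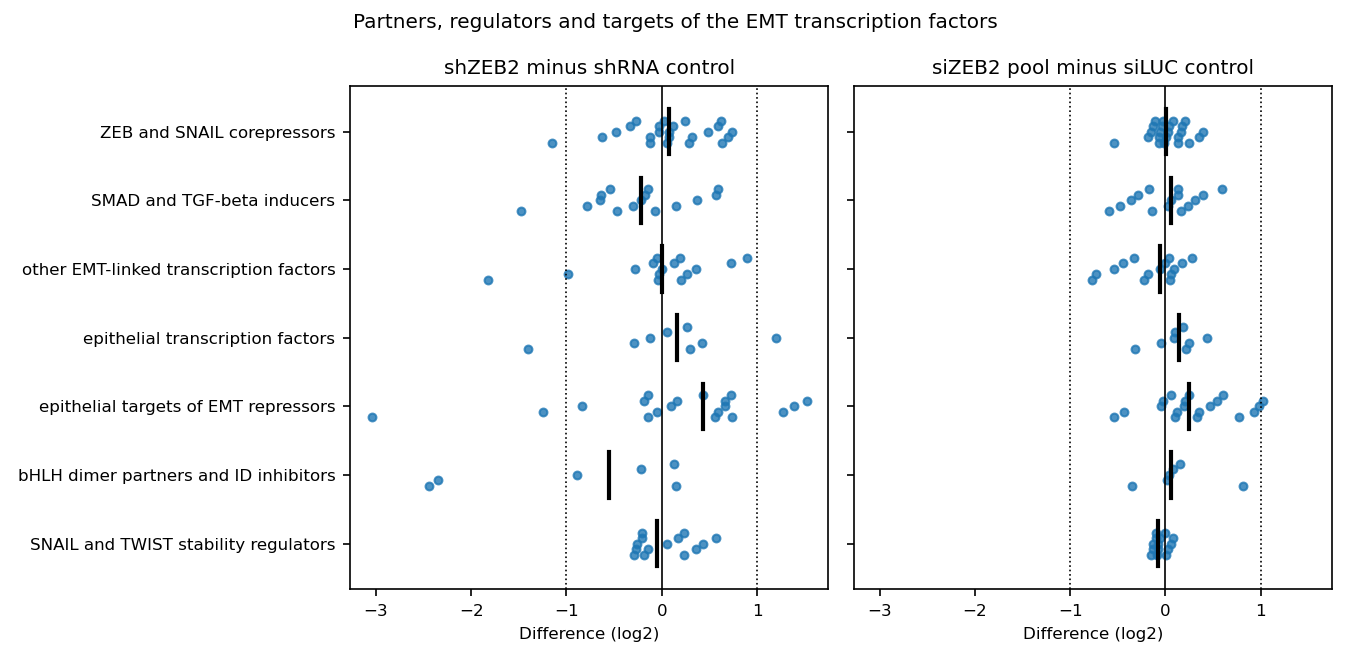
Difference (log2) of each gene by its brightest probe set past the filter, in 7 gene lists, for shZEB2 minus vector control on the left and siZEB2pool minus siLUC control on the right. Each point is 1 gene, black bars are list medians and dotted lines mark 2-fold. The epithelial targets have the highest median in both panels, 0.436 and 0.252, and the points spread more widely on the left.

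Epithelial genes that EMT factors are known to repress were higher on balance in both pairs. Of 19 past the filter, 12 were higher in the stable pair, against 46.6% of all genes, and 15 in the transient pair, against 46%, with medians of 0.436 and 0.252. When each gene was taken by the median of all its probe sets the medians were 0.167 and 0.0976. At 1.5-fold, 5 were higher in both pairs, against 0.126% of all genes, and 0 were lower in both, against 0.332%. The 5 were CDH1, the adhesion gene EPCAM, the tight junction gene CLDN1, the plakin gene PPL and the polarity gene PARD6B. All had been seen to differ in earlier results of these data, so their number is no independent evidence of a direction. CDH1 read 4.26 in shZEB2 cells against 3.54 in the vector control, and 8.35 in siZEB2pool cells against 7.37 in the siLUC control. Both stable lines were thus under the filter level for CDH1, and the siRNA cultures were bright whether or not ZEB2 had been lowered. EPCAM read 8.40 in shZEB2 cells against 7.01 in the vector control, and 9.07 in siZEB2pool cells against 8.47 in the siLUC control. Of these 5, EPCAM and PPL rest on 1 probe set each. The other CDH1 probe set differed by 0.16 in the stable and 0.45 in the transient pair. That of CLDN1 differed by 0.51 and 0.54, so neither was at 1.5-fold in either pair. The other probe sets of PARD6B reached down to -0.14 in the transient pair.

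Between the controls these epithelial genes were likewise higher in siLUC than in vector cells, with a median of 0.884, or 0.426 by the median of all probe sets of each gene, and 16 of 19 genes higher, against 54% of all genes. At 2-fold 9 of 19 were higher there, against 10.8% of all genes. In the stable pair 3 of 19 were 2-fold higher, EPCAM, PATJ and LLGL2, against 2.39%. There 2 were 2-fold lower, CLDN7 at -1.25 and GJB2 at -3.04, against 2.08%. LLGL2 differed by 1.52 in its brightest probe set, from 4.12 in the vector control, but by -0.04 in its other. For PATJ the median over its 6 probe sets was 0.05 in the stable pair. In the transient pair PARD6B was 2-fold higher, 1 of 19 against 0.0464%, and 0 were 2-fold lower, against 0.126%. LLGL2, CLDN7 and GJB2 are named because of their values. Epithelial transcription factors had medians of 0.158 and 0.146 over 8 genes. KLF5 differed by 1.20 and 0.10, and EHF, an epithelial ETS factor, by -1.40 and -0.32.

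ZEB and Snail factors bind E-boxes of the sequence CAGGTG, which reads CACCTG on the other strand. These letters were sought on both strands in the 250 bases before the start site of RefSeq genes (GRCh38.p14), where the 2 forms cannot overlap. Of 35116 such windows 17.5% held at least 1. Among the EMT factors 6 of 10 genes matched the table, with 24 windows, and the letters stood in 2 windows, both of ZEB1. The windows of ZEB2, the most upstream ZEB1 start, and the polarity genes PATJ and CRB3 are shown. Both polarity genes are known targets of ZEB repressors. The ZEB2 window is an example without the letters, and the other windows hold them. Capitals mark CAGGTG or CACCTG, and each is read 5′ to 3′ on the strand of the gene.
ZEB2, chr2:144520120-144520369, minus strand: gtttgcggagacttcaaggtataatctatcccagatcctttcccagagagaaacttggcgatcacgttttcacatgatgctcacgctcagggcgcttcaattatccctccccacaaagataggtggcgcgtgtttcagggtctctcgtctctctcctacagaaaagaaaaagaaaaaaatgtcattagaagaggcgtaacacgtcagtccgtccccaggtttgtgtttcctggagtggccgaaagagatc
ZEB1, chr10:31318167-31318416, plus strand: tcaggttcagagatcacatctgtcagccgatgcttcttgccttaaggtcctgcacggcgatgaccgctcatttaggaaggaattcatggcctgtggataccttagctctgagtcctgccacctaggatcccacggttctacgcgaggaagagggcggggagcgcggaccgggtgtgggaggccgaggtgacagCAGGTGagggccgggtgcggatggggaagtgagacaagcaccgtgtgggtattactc
PATJ, chr1:61742230-61742479, plus strand: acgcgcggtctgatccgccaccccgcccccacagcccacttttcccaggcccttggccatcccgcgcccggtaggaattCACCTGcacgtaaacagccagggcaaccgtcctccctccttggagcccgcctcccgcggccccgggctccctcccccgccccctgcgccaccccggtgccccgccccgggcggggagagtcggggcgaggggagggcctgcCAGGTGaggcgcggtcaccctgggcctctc
CRB3, chr19:6464021-6464270, plus strand: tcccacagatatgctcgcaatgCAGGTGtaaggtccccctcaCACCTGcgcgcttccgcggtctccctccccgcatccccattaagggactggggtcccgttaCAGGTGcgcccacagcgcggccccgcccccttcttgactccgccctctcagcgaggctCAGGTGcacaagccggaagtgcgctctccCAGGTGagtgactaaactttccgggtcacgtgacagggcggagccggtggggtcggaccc

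The CRB3 window held 5 matches, the PATJ window 2, the ZEB1 window 1 and the ZEB2 window 0. At least 3 matches were held by 0.464% of all windows, so CRB3 is an extreme example. CRB3, which encodes the Crumbs polarity protein, read 6.19 in shZEB2 cells against 6.34 in the vector control, and 7.42 in siZEB2pool cells against 7.06 in the siLUC control. PATJ, a scaffold of the Crumbs complex, read 6.07 in shZEB2 cells against 4.80 in the vector control, and 6.22 in siZEB2pool cells against 5.68 in the siLUC control. The 6 PATJ probe sets ran from -0.12 to 1.27 in the stable pair and from -0.05 to 0.57 in the transient pair. By brightest probe set the 2 genes went in different directions in the stable pair, -0.15 for CRB3 and 1.27 for PATJ. In the transient pair they went in the same direction, 0.36 and 0.54. Over its 6 probe sets PATJ had a median of only 0.05 in the stable pair and 0.44 in the transient pair. A match is a stretch of letters and not a measured binding site.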

How the data were processed

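The authors deposited log2 expression values per probe set, made with RMA (affy) according to the submitters' processing notes, versions not stated there. RMA corrects background, normalises arrays to 1 distribution and summarises probes. Sorted values lay within 0.0805 of their mean, so a change in the total RNA of a cell would not be seen. Scanner files were not used here. Of 54675 probe sets, 41097 carried 1 symbol in the platform annotation, 1801 several and 11777 none; all 10 members matched the RefSeq table (GRCh38.p14) by gene identifier, with 10 symbols unchanged. The filter at the 40th percentile kept 35626 probe sets. Knockdown minus own control was taken as a log2 difference, untested, and limma (3.58.1, R 4.3.3; lmFit, eBayes with intensity trend, 2-sided, Benjamini-Hochberg at 0.05) tested the common effect; this step was tested on simulated data. Its p-values measure the spread of the knockdown difference between methods, not between cultures. Members, 9 gene lists (152 genes, 137 with a probe set of 1 symbol) and alternatives were chosen with earlier results of these data known. Named were all members, the 5 genes nearest to ZEB2, CDH1, and from each list the genes past 1.5-fold in 1 direction in both pairs, or else the 2 with the largest mean size of difference; others named were chosen after their values were seen or for their role. From the marker list the rule gave PECAM1 (-0.69 and 0.22 in the stable and transient pairs) and KRT19 (-0.02 and -0.75). Data columns not used numbered 0. Python 3.11.15 with matplotlib 3.10.9 drew the figures.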

Additional observations from a re-analysis of the deposited data

Results flagged for a closer look

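For 4 factors the brightest probe set, where it passed the filter, moved one way in the stable pair and the other way in the transient pair. With 1 array per group these differences between the pairs were not tested, and opposite signs are found in 50.6% of all probe sets kept. SNAI2 213139_at was higher by 1.97 in the stable pair and differed by -0.26 in the transient pair. PRRX1 226695_at differed by -0.84 and 0.12, SNAI1 219480_at by -0.58 and 0.19, and ZEB1 212764_at by -0.28 and 0.13. For SNAI2 the vector control was the lowest of the 4 arrays, at 8.88, and for ZEB1 the highest, at 10.81. PRRX1 and SNAI1 passed the filter through the vector control alone, which therefore had to be their highest array.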

How the results depend on the processing

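The method block in limma sets each knockdown against its own control, and the labels give no replicate numbers to pair on. With 1 array per group no replicate could be left out. In the stable pair the 4 probe sets at 2-fold became 2 with a filter at the 60th percentile, 2 with the brightest probe set per gene, 1 with the mean of probe sets per gene and 2 at 3-fold. In the transient pair the 2 became 1 with the filter at the 60th percentile, 1 with the filter on the mean, 1 with the brightest probe set per gene, 0 with the mean of probe sets and 1 at 3-fold. Between the controls the 4 became 2, 1 and 2 with the 60th percentile, the brightest probe set and the mean of probe sets, 8 at 1.5-fold and 2 at 3-fold. Fewer probe sets were counted in the filtered and per-gene settings. Median centring, quantile normalization, cyclic loess, no filter and leaving out _x_at probe sets kept each of these 3 counts within 1.5 times. In limma, 0 of the EMT factor probe sets passed under every alternative run, and the adjusted p of ZEB2 203603_s_at ran from 0.848 with quantile normalization to 1 without the method block. Dim probe sets, under 4.77 on every array, limit what can be said of TWIST1, FOXC2, KLF8 and most of TCF4.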

Other observations

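RMA gave exactly equal values on both arrays of a pair for 87 of 35626 probe sets in the stable pair and 130 in the transient pair. Among the EMT factors this was TCF3 228052_x_at, at 5.39 on both shRNA arrays.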
